A study of Xenopus laevis with 30 samples.

Results

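The subject is a set of 6 gene entries of the frog Xenopus laevis, caprin2.S, rev3l.L, ryr3.L, nrip1.L, tns1.L and arid4b.S, with the 6 entries of their homeologs. The 12 entries are part of 49109 in the count tables. Xenopus laevis is allotetraploid, so most genes exist as a pair of homeologous copies named L and S. The 6 entries were picked from these data for lower levels in explants that carried a morpholino against Sf3b4. Their difference between the groups is therefore given as a description, with no test. The homeologs belong to the set by name alone and were tested.

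RNA came from animal caps, the pluripotent ectoderm of the blastula. At the 2-cell stage every embryo received mRNA for the BMP antagonist noggin and the ligand wnt8, a mixture that turns ectoderm into neural crest progenitors. The morphant group, called NWS, also received the Sf3b4 morpholino, and the control group, called NW, did not. Sf3b4 is a protein of the SF3b complex, the part of the spliceosome that binds near the branch point. Caps were cut at stage 8 to 9 and grown for 8 hours. Each group had 3 libraries prepared with depletion of ribosomal RNA and 3 without it, 12 libraries in 4 groups. The labels describe individual animal caps as biological replicates, and both preparations use the same library numbers, so a depleted and an undepleted library may come from the same RNA. Agreement between the preparations is then not a second biological test.

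The picked genes have separate roles. Caprin2 is a cytoplasmic protein that, in mammalian cells and zebrafish, promotes phosphorylation of the Wnt coreceptor Lrp6. Rev3l is the catalytic subunit of DNA polymerase zeta, which copies past damaged bases. Ryr3 is a ryanodine receptor, a channel that releases calcium from the endoplasmic reticulum. Nrip1 is a corepressor of nuclear receptors, and Arid4b is a chromatin-binding subunit of Sin3 histone deacetylase complexes. Tns1, a tensin, joins integrin tails to actin at adhesions.

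Counts were few in most libraries. Total counts were 351902 to 3570364 in depleted and 3499960 to 4339788 in undepleted libraries. Outside 5 dominant entries, those with more than 0.5% of the counts of any library, only 112762 to 2803732 counts were left in depleted libraries and 87172 to 2042925 in undepleted ones. NW library 3 had by far the most of these counts in both preparations. Among NW libraries, number 2 had the fewest. The spread between replicates was wide, with a common biological coefficient of variation of 0.743 (depleted) and 0.687 (undepleted). For the targeted gene, depleted sf3b4.L ranged over 3.68 to 30.1 CPM in NWS and 10.98 to 25.3 CPM in NW. Depleted sf3b4.S ranged over 3.68 to 13.7 CPM in NWS and 15.2 to 20.97 CPM in NW, the only one of these comparisons without overlap. In undepleted libraries sf3b4.L ranged over 3.66 to 11.3 CPM in NWS and 3.65 to 10.1 CPM in NW, and sf3b4.S over 4.196 to 9.47 CPM in NWS and 2.92 to 11.04 CPM in NW. None of these differences passed in edgeR (adjusted p = 0.999 depleted, 1.00 undepleted). A morpholino binds RNA without having to remove it, so RNA levels do not check this label.

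The label of large genes held for only some of the set. Entry length, recovered from the ratio of deposited counts to FPKM, was 17.258 kb for ryr3.L, 11.744 kb for rev3l.L and 11.574 kb for tns1.L, each above the 90th percentile of tested entries (8296 bases). The entry of nrip1.L had 6.98 kb and that of arid4b.S 4.783 kb. At 1.668 kb caprin2.S lay below the median of 3722 bases, at percentile 12.6. These lengths are those behind the deposited FPKM, and the sources used here do not say whether they cover a single transcript or all exons of an entry. Lengths of the genes with introns were not used here. The files give neither build nor coordinates.

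Levels below are CPM, counts scaled to the effective library size of edgeR, with both preparations normalised apart. Their CPM values are therefore not on 1 scale. Across all entries tested, 4.12% of 6585 in depleted and 3.76% of 6284 in undepleted libraries had every NWS library below every NW library. Of the 6 picked entries 5 did so in depleted libraries, of which 4 were among the tested entries and arid4b.S was not. In undepleted libraries 4 did so, all tested. The choice of the entries used this pattern, and nothing is read from it. The filter on low counts, which looks at the size of counts, was passed by 4 picked entries in depleted and 5 in undepleted libraries. The filter asks for enough counts in as many libraries as a group holds. No picked entry met its cutoff in every NWS library of a preparation, so each was kept wholly or partly through its NW counts. Some of them passed through their NW counts alone. In depleted libraries ryr3.L had 2 counts in NWS and 266 in NW. In undepleted libraries nrip1.L had 0 and 164, and arid4b.S had 3 and 200. Less RNA per cell and fewer cells of a type that holds the RNA cannot be told apart in such explants.

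**Figure D1:**
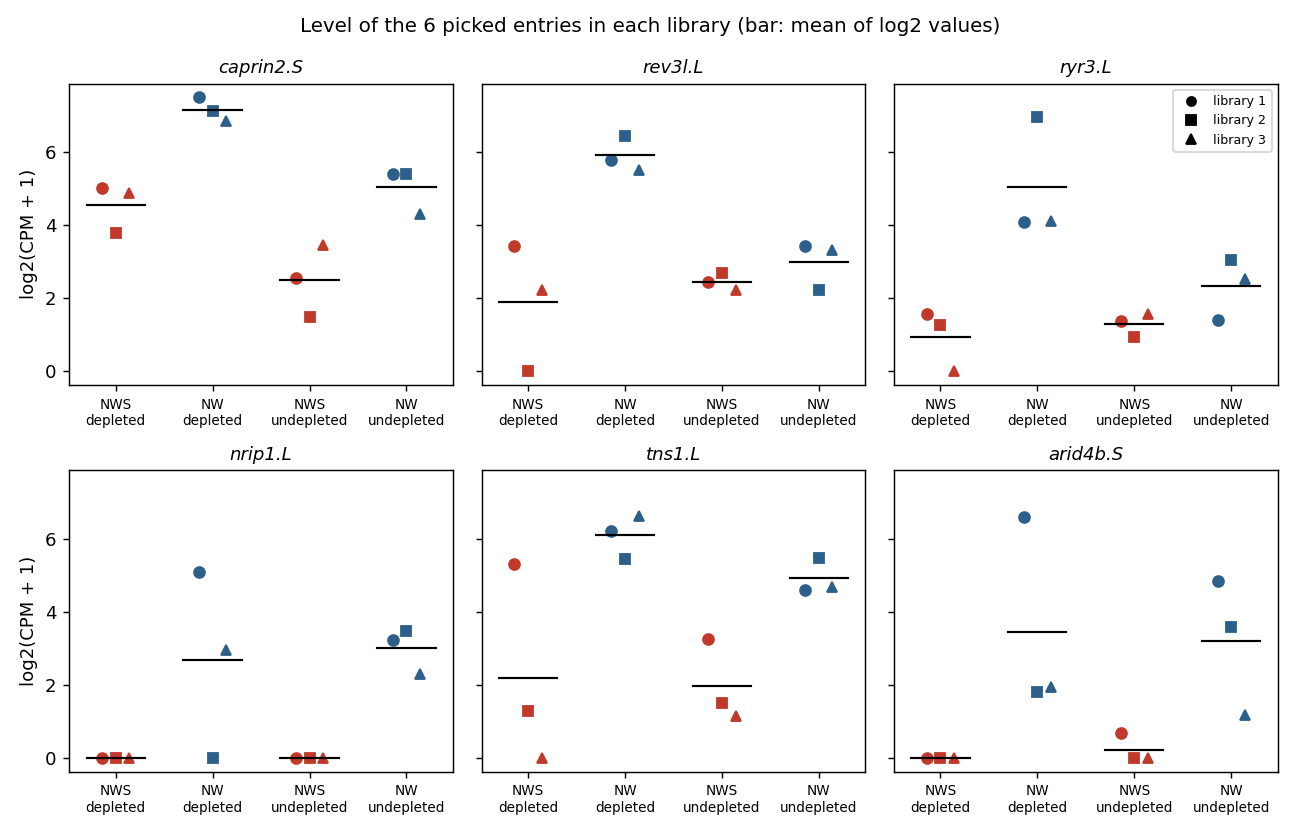
Level of each picked entry, as log2(CPM + 1), in the 3 libraries of each group, with NWS in red left of NW in blue, depleted left of undepleted; symbols give the library number and bars the mean. All NWS libraries hold 0 nrip1.L counts in both preparations, and tns1.L of NWS stands highest in library 1, at 39.2 CPM depleted.

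The short entry caprin2.S was the most abundant. In depleted libraries it had 31.4, 12.9 and 28.5 CPM in NWS libraries 1, 2 and 3, against 181, 139 and 114 CPM in NW libraries. The undepleted values were 4.83, 1.83 and 10.1 CPM in NWS, against 41.8, 41.4 and 18.9 CPM in NW. The groups did not overlap in either preparation, and NW library 3 was the lowest of its group in both.

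The mean of caprin2.S in NWS was 16.8% of that in NW in depleted and 16.4% in undepleted libraries. Summed over libraries, with the deep NW library 3 weighing most, it was 19.6% in depleted and 28.4% in undepleted libraries. The log2 fold change of NWS over NW was -2.58 ± 0.70 (SE) in depleted and -2.52 ± 0.72 in undepleted libraries. Leaving out single libraries kept it between -2.75 and -2.27 in depleted and between -3.17 and -2.09 in undepleted libraries. In the deposited FPKM, a level per length, caprin2.S averaged 78.5 ± 20.5 in NW depleted libraries (SD, n = 3), at percentile 98.3 of all tested entries. Its copy caprin2.L had 5 counts in NWS and 15 in NW depleted libraries, and 9 in each group of undepleted libraries. All NW counts came from the deep library 3, and by mean CPM caprin2.L was 2.22 in NWS and 0.446 in NW depleted libraries, and 0.710 in NWS and 0.110 in NW undepleted libraries. In NW the gene was thus read almost wholly from S, although reads that match both copies may be split between them. In NWS, where caprin2.S was low, caprin2.L had 5 counts beside 56 of caprin2.S in depleted and 9 beside 67 in undepleted libraries.

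Depleted libraries held 9.81, 0 and 3.68 CPM of rev3l.L in NWS, against 54.9, 85.9 and 44.8 CPM in NW. All NWS values were far below the lowest NW value. Undepleted libraries held 4.43, 5.49 and 3.70 CPM in NWS, against 9.87, 3.68 and 9.10 CPM in NW, so there the groups overlapped and NW library 2 lay below every NWS library. That NW library had only 4 counts of the entry.

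The log2 fold change of rev3l.L was -3.84 ± 1.01 (SE) in depleted and -0.80 ± 0.84 in undepleted libraries, and whether these differ was not tested. NWS averaged 7.27% of NW in depleted and 60.2% of NW in undepleted libraries (8.27% and 47.0% when summed over libraries). The S copy, rev3l.S, had 5 counts in NWS and 15 in NW depleted libraries, and 3 and 28 in undepleted NWS and NW libraries. Its mean was 2.23 CPM in NWS and 2.09 CPM in NW depleted libraries, and 0.439 CPM in NWS and 0.587 CPM in NW undepleted libraries. Its level per length in NW depleted libraries was 0.167 FPKM, against 4.77 FPKM for rev3l.L.

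The longest picked entry, ryr3.L, had 1.96, 1.43 and 0 CPM in NWS depleted libraries, against 15.98, 124 and 16.5 CPM in NW. Only 2 counts stood behind all NWS values, and NW library 2 was far above the other NW libraries. In undepleted libraries it had 1.61, 0.915 and 1.97 CPM in NWS, against 1.64, 7.36 and 4.75 CPM in NW, and NW library 1 lay within the NWS range.

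Summed over libraries, the depleted NWS level of ryr3.L was 4.46% of that in NW, with an exact 95% interval of 0.538% to 16.3% for counting error only, and the mean of NWS was 2.17% of that of NW. The log2 fold change fitted in depleted libraries was -5.66 ± 1.31 (SE), and -4.04 without NW library 2. In undepleted libraries ryr3.L missed the filter. There the summed level of NWS was 38.8% of that of NW, and the mean of NWS was 32.7% of that of NW. The copy ryr3.S had 5 counts in NWS and 47 in NW depleted libraries, and 4 and 16 in undepleted NWS and NW libraries, all too few for the test within a preparation. Its mean was 2.05 CPM in NWS and 3.99 CPM in NW depleted libraries, and 0.744 CPM in NWS and 0.683 CPM in NW undepleted libraries.

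The nuclear receptor corepressor nrip1.L had no count in any of the 6 NWS libraries. In NW it had 33.4, 0 and 6.87 CPM in depleted and 8.41, 10.1 and 3.94 CPM in undepleted libraries. NW library 2 was also at 0 after depletion, where the floor of 3 counts stands at 7.58 CPM. The groups overlapped there at 0 and did not overlap in undepleted libraries.

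Set against that floor of 3 counts a library, averaged over the NWS libraries, nrip1.L was at least 3.11-fold lower in NWS than in NW in depleted and at least 5.49-fold lower in undepleted libraries. The depleted bound rests on NW library 1: without it the NW mean was 3.43 CPM, below the mean NWS floor of 4.32 CPM, and no bound is left. Its S copy was detected throughout. The entry nrip1.S had 13.7, 12.9 and 12.9 CPM in NWS depleted libraries, against 25.5, 10.1 and 25.5 CPM in NW. Its undepleted values were 3.63, 0.915 and 4.44 CPM in NWS, against 5.12, 3.68 and 7.88 CPM in NW. The groups overlapped in both preparations.

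The difference of nrip1.S did not pass in edgeR, with a log2 fold change of -0.66 ± 0.95 (SE, adjusted p = 0.999) in depleted and -0.84 ± 0.92 (adjusted p = 1.00) in undepleted libraries. In NW depleted libraries nrip1.L had 4.4, 0 and 0.85 FPKM in libraries 1, 2 and 3, and nrip1.S had 2.2, 0.87 and 2.06 FPKM. In NW undepleted libraries the means were 1.02 FPKM for nrip1.L and 0.48 FPKM for nrip1.S. The order of the copies thus varied between libraries. With both copies summed, the log2 fold change of nrip1 in undepleted libraries was -2.004. The difference between the copies was not tested, because only one of them was picked for its level.

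The S copy of arid4b was likewise rare in morphant explants. In depleted libraries arid4b.S had no count in NWS, against 96.9, 2.53 and 2.85 CPM in NW. Libraries 2 and 3 of NW lay below the NWS floor of library 1, 5.89 CPM, so that the lack of overlap rests on NW library 1. Without depletion it had 0.604, 0 and 0 CPM in NWS, against 28.1, 11.04 and 1.25 CPM in NW. Here NW library 3 lay below the floor of NWS library 2, 2.75 CPM, so depth limits this lack of overlap too. NW library 1 was the highest in both preparations.

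For arid4b.S in depleted libraries the level in NWS was at least 7.89-fold lower than in NW, a bound that rests on NW library 1. Without that library the NW mean was 2.69 CPM, below the mean NWS floor of 4.32 CPM, and no bound is left. In undepleted libraries, with 3 counts in NWS and 200 in NW, the summed level of NWS was 5.002% of that of NW (exact 95% interval 1.02% to 14.8%, counting error only), and the mean over the NWS libraries was 1.49% of the NW mean. NW library 1 was also the library with the highest mesoderm marker sum among the depleted libraries, 119 CPM, in which myod1.S reached 46 counts and actc1.S 73. Both muscle entries were at 0 in all NWS depleted libraries. Their L copies differed: actc1.L averaged 0 CPM in NWS and 5.16 CPM in NW depleted libraries, but myod1.L averaged 1.53 and 1.16 CPM. Whether the mesoderm RNA of NW library 1 has a part in its arid4b.S level was not tested.

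Its copy arid4b.L was measured at 9.81, 5.73 and 17.5 CPM in NWS depleted libraries, against 45.9, 25.3 and 23.6 CPM in NW. The undepleted libraries gave 5.24, 4.58 and 3.21 CPM in NWS, against 16.1, 31.3 and 5.16 CPM in NW. The groups did not overlap in depleted libraries and overlapped narrowly in undepleted ones, where NW library 3 at 5.16 CPM lay just below NWS library 1. The log2 fold change was -1.50 ± 0.91 (SE, edgeR adjusted p = 0.999) in depleted and -1.97 ± 0.81 (adjusted p = 1.00) in undepleted libraries, lower in NWS in 3 of 3 pairs of like number each time. Neither passed, and the undepleted one had an unadjusted p of 0.0229 in edgeR. With the copies summed, arid4b had a log2 fold change of -2.74 in undepleted libraries.

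The tensin entry tns1.L had 39.2, 1.43 and 0 CPM in NWS depleted libraries, against 73.4, 42.9 and 98.9 CPM in NW. In undepleted libraries it had 8.66, 1.83 and 1.23 CPM in NWS, against 23.6, 44.2 and 24.7 CPM in NW. The groups did not overlap, but NWS library 1 stood well above the other NWS libraries in both preparations.

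The mean of tns1.L in NWS was 18.9% of that in NW in depleted and 12.7% in undepleted libraries, and 9.79% and 19.7% when summed over libraries. Its log2 fold change was -2.52 ± 1.05 (SE) in depleted and -2.87 ± 0.78 in undepleted libraries. Without NWS library 1 it was -6.82 and -4.34, and only 1 NWS count, in library 2, then stands behind the depleted value. The copy tns1.S had 12 counts in all depleted and 2 in all undepleted libraries, at most 10 in any library.

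**Figure D2:**
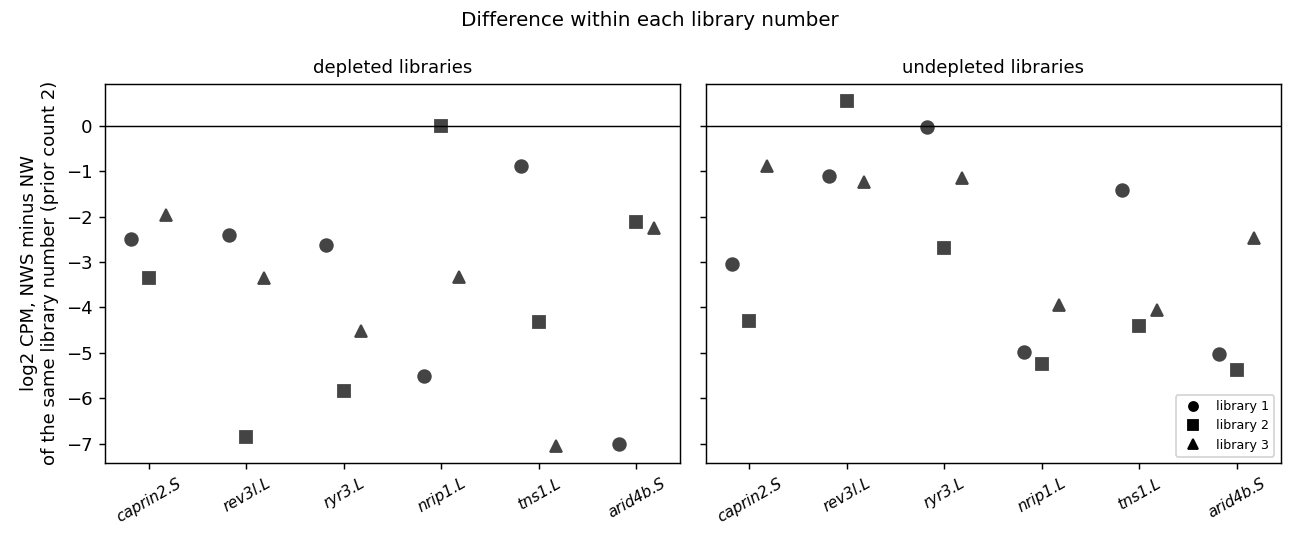
Difference in log2 CPM (prior count 2) between the NWS and the NW library of the same number for each picked entry, depleted left and undepleted right; symbols give the number. All 3 pairs lie below 0 for 5 entries in each preparation, with the exceptions of nrip1.L in depleted libraries, where pair 2 is at 0, and rev3l.L in undepleted libraries, where pair 2 is above 0. The choice of the entries used these differences, so nothing is read from their number. Pair 1 of ryr3.L in undepleted libraries is at -0.025, and pair 2 of arid4b.S in depleted libraries compares 0 counts with 1.

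The values that chose the entries came from a fit with the library number as a block. There 8 depleted (0.121%) and 7 undepleted entries (0.111%) were called lower in NWS at an edgeR adjusted p under 0.05, of which 3 each are picked entries. The adjusted p was 0.0317 for ryr3.L, 0.0386 for rev3l.L and 0.0411 for caprin2.S in depleted libraries, and 0.0126 each for nrip1.L, tns1.L and arid4b.S in undepleted ones. These values show how the entries were chosen and are no test of them. Among entries lower in NWS, the last inside the threshold in depleted libraries was caprin2.S itself, and tns1.L was just outside at 0.0522. In undepleted libraries Xelaev18022167m was the last inside at 0.0305, and id3.S was just outside at 0.0552, next to caprin2.S at 0.0559. No picked entry was thus inside in both preparations. For ryr3.L, nrip1.L and arid4b.S this could not occur, since ryr3.L missed the filter in undepleted and the others in depleted libraries. Without the block edgeR called 0 of 6585 entries in depleted libraries (0.0%, with 245 at an unadjusted p under 0.05, 9 by DESeq2 and 2 by limma-voom) and 1 of 6284 in undepleted libraries (0.0159%). That 1 entry was Xelaev18022166m, no member of the set.

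Of the 6 homeologs 2 passed the filter on low counts in each preparation, nrip1.S and arid4b.L. None passed the test in edgeR, with or without the block, in DESeq2 or in limma-voom. At an unadjusted p under 0.05 edgeR gave 0 in depleted libraries and 1, arid4b.L, in undepleted ones. Of all tested entries 245 of 6585 and 253 of 6284 had such a p. Only arid4b.L had every NWS library below every NW library, in depleted libraries alone, beside 4.12% of all tested entries there and 3.76% in undepleted libraries.

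**Figure D3:**
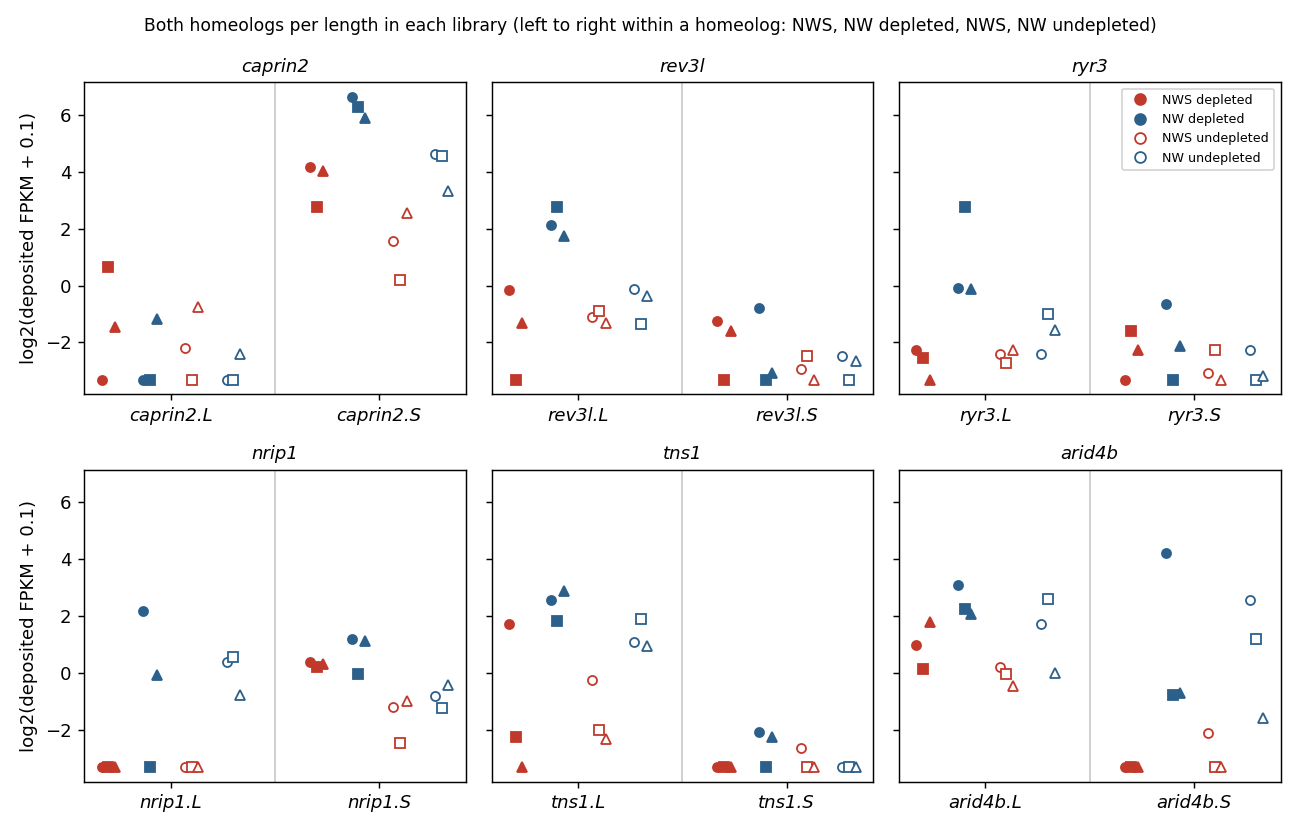
Deposited FPKM, a level per length, as log2(FPKM + 0.1) for the L and the S copy of each gene in every library; NWS is red and left of NW in blue, filled for depleted and open for undepleted, with circles, squares and triangles for libraries 1, 2 and 3. The picked copy of caprin2, rev3l and tns1 carries most of the NW level in each library, while for nrip1 and arid4b either copy can be the higher one, depending on the NW library. For ryr3 the L copy is higher in every NW library except undepleted library 1. There it has 0.09 FPKM (9 counts), against 0.11 FPKM (10 counts) for the S copy.

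Which copy is expressed also varied. In NW depleted libraries the mean level per length of the picked copy was 78.5 FPKM against 0.113 FPKM of the other copy for caprin2, and 5.53 against 0.0833 FPKM for tns1. For ryr3 it was 2.76 against 0.223 FPKM. The median of all entries tested was 4.34 FPKM there, with the mean of ryr3.L at percentile 33.2 and that of nrip1.L at 18.4. Each of these means rests largely on 1 library, since ryr3.L had 0.85, 6.61 and 0.82 FPKM and nrip1.L had 4.4, 0 and 0.85 FPKM. In undepleted NW libraries ryr3.L lay at percentile 3.58, nrip1.L at 38.3 and caprin2.S at 97.5.

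The preparations could be compared over both treatments, a contrast that the choice of the entries did not use. Depleted and undepleted libraries were sequenced on different lanes, so preparation and lanes cannot be told apart. The main fit also took all libraries as independent, although the preparations may share RNA. Averaged over NWS and NW, the log2 ratio of depleted over undepleted libraries was 0.29 ± 0.49 (SE) for caprin2.S, -0.36 ± 0.63 for rev3l.L, -0.40 ± 0.80 for ryr3.L and -0.39 ± 0.62 for tns1.L. It was 0.18 ± 0.67 for nrip1.S, -0.63 ± 0.60 for arid4b.L, 0.43 ± 1.19 for ryr3.S and 0.41 ± 1.17 for rev3l.S. None passed in edgeR (adjusted p = 1.00 each). Of all 13224 entries 5 (0.0378%) were called, all lower in depleted libraries, and only smad4.1.S among them has a gene name. With the block the sign of ryr3.L turned to 0.20 and that of rev3l.S to -0.06. Without all libraries numbered 2 the values were -1.26 for ryr3.L and 1.01 for rev3l.S. For nrip1.L and arid4b.S a group was at 0, so no ratio is given.

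Whether lower levels went with length was looked at over all tested entries. They were sorted by length into classes of 10% each, without the members. The median log2 fold change of the longest 10% was -0.11 in depleted and -0.07 in undepleted libraries, and that of the shortest 10% was -0.08 and -0.05. With the library number as a block the longest 10% had -0.07 and -0.085, and the shortest 10% had 0.03 in depleted and -0.01 in undepleted libraries. The medians of all tested entries were -0.03 and -0.04 without the block, and -0.003 and -0.021 with it. A log2 fold change below -2 was found for 4.26% of the longest 10% in depleted and 1.59% in undepleted libraries, against 2.81% and 1.97% of all tested entries. Spearman's correlation of length and fold change across entries was -0.03 and -0.025, and -0.046 and -0.035 with the block, where entries share libraries and long ones also had higher counts (a Spearman's correlation of 0.21 with mean CPM in both).

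**Figure D4:**
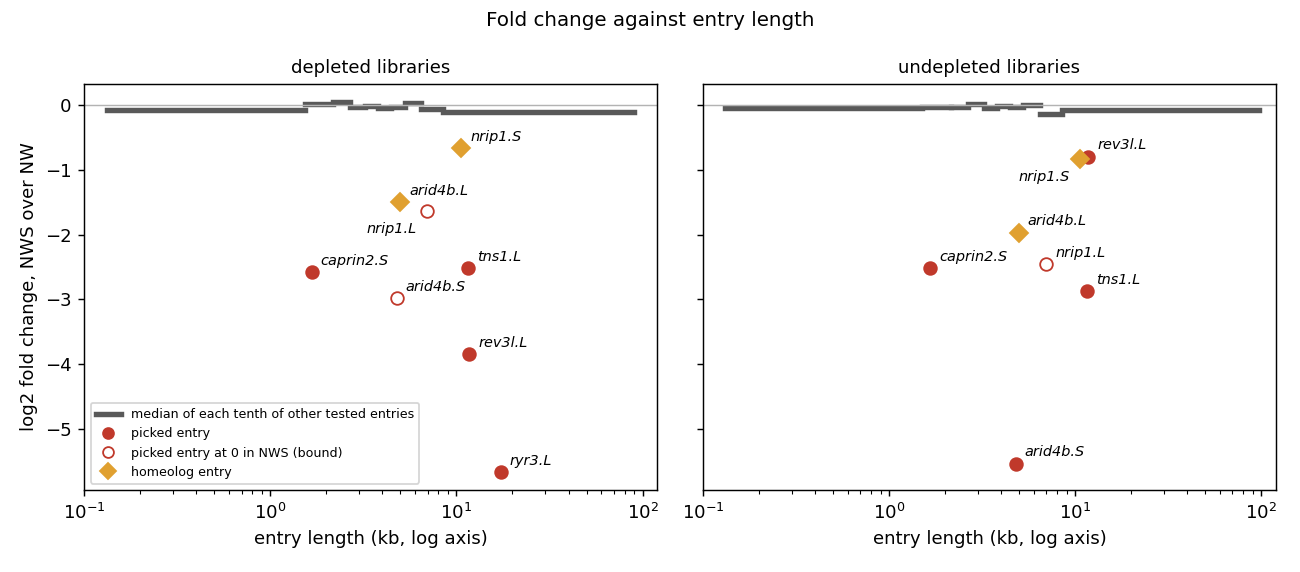
Log2 fold change of NWS over NW against entry length in kb on a log axis, for depleted (left) and undepleted (right) libraries; grey bars give the median of each 10% of the other tested entries by length, red circles the picked entries and yellow diamonds their homeologs, and open circles mark bounds for entries at 0 in NWS. The medians of these classes stay between -0.14 and 0.04, while the picked entries, chosen for it, lie below.

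The share of counts in the longest 10% of tested entries, without dominant entries and members, gave 1 value for each library. In depleted libraries it was 15.3%, 16.1% and 14.9% in NWS, against 16.4%, 18.1% and 12.3% in NW. In undepleted libraries it was 13.4%, 14.5% and 13.7% in NWS, against 14.5%, 15.2% and 11.8% in NW. NW libraries held both the highest and the lowest value each time.

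The mean share was 15.4 ± 0.62% in NWS and 15.6 ± 2.96% in NW depleted libraries (SD, n = 3 each), a difference of -0.178 points (exact two-sided permutation test, p = 0.9). It was 13.9 ± 0.54% in NWS and 13.8 ± 1.80% in NW undepleted libraries, a difference of 0.031 points (exact p = 1.0). The smallest p that 3 against 3 libraries allow is 0.1. Its sign turned in both preparations when single libraries were left out, as in depleted libraries without NW library 2 (1.07 points) and in undepleted ones without NW library 3 (-0.990 points).

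**Figure D5:**
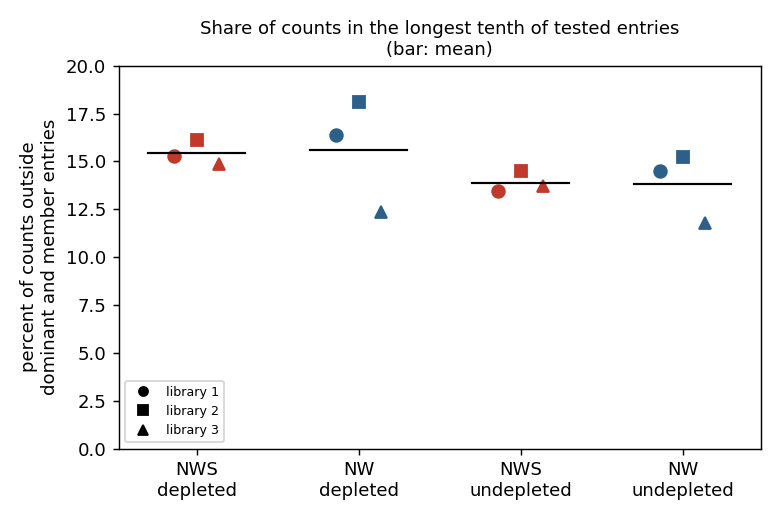
Percent of each library's counts, outside dominant entries and members, that fall in the longest 10% of tested entries; NWS is red and left of NW in blue, symbols give the library number and bars the mean. NWS libraries span 14.9% to 16.1% and NW libraries 12.3% to 18.1% after depletion, with NW library 3 lowest in both preparations.

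A list of other large genes, such as those for giant cytoskeletal proteins, cadherins and chromatin regulators, had 70 tested entries in depleted and 69 in undepleted libraries. None passed in edgeR, with or without the block, in DESeq2 or in limma-voom, and 7 and 4 had an unadjusted p under 0.05, beside 245 of 6585 and 253 of 6284 entries in all. Of them 41 in depleted and 46 in undepleted libraries had a log2 fold change below 0, beside 51.5% and 52.1% of all tested entries. Their median was -0.25 and -0.29. Among those with the largest mean change in both preparations were vps13d.L and fat4.L. The atypical cadherin entry fat4.L averaged 10.3 ± 7.21 CPM in NWS and 45.5 ± 33.2 CPM in NW depleted libraries (SD, n = 3 each). Its log2 fold change was -2.10 ± 0.95 (SE, adjusted p = 0.999) in depleted and -1.84 ± 0.89 (adjusted p = 1.00) in undepleted libraries. The entry vps13d.L, for a lipid transfer protein, had -2.40 ± 1.62 in depleted and -1.72 ± 1.12 in undepleted libraries.

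Among the longest tested entries outside the set, dst.L, for the spectraplakin dystonin, has 32746 bases. It averaged 77.3 ± 23.7 CPM in NWS and 224 ± 159 CPM in NW depleted libraries, with a log2 fold change of -1.52 ± 0.69 (SE, adjusted p = 0.999) in depleted and -1.60 ± 0.69 (adjusted p = 1.00) in undepleted libraries. The entries unnamed.L and unnamed.S, at 71920 and 39233 bases, may pool several gene models under 1 name. They had 0.71 ± 0.64 and -0.42 ± 0.81 in depleted libraries, and 0.59 ± 0.64 and -1.21 ± 0.80 in undepleted libraries.

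The partners of each picked gene were read from lists of their pathways, with log2 fold changes ± SE given for depleted and undepleted libraries as a pair. No entry of these lists passed in edgeR with or without the block, in DESeq2 or in limma-voom, in either preparation. Of all tested entries, 245 of 6585 in depleted and 253 of 6284 in undepleted libraries had an unadjusted p under 0.05 in edgeR. The counts of each list below stand beside these shares. For caprin partners and the Wnt receptor complex, 18 entries were tested in depleted and 21 in undepleted libraries, with median log2 fold changes of 0.09 and -0.10 and 0 at an unadjusted p under 0.05 in each. The feedback inhibitor axin2.S had 1.05 ± 0.95 and 1.14 ± 0.89, the kinase entry gsk3a.S 0.74 ± 0.84 and 0.90 ± 0.80, and usp10, a deubiquitinase of stress granules, -1.42 ± 0.98 and -0.34 ± 0.93. Every adjusted p was 0.999 or 1.00. For translesion synthesis 7 and 9 entries were tested, with medians of -0.04 and -0.31 and 0 and 1 at an unadjusted p under 0.05. The ubiquitin ligase entry hltf.L had -1.88 ± 1.10 and -0.31 ± 0.96, and the deubiquitinase usp1 -0.04 ± 1.06 and -1.47 ± 0.96 for its S and 0.45 ± 1.00 and 0.64 ± 0.91 for its L copy.

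For calcium stores and channels 16 and 15 entries were tested, with medians of -0.28 and -0.49 and 1 in each at an unadjusted p under 0.05. Of all tested entries 245 of 6585 and 253 of 6284 had such a p. The calcium channel entry cacna1s.S had positive values, 3.33 ± 1.17 (adjusted p = 0.884) and 3.16 ± 1.14 (adjusted p = 0.935). It averaged 31.8 ± 19.1 CPM in NWS and 2.79 ± 4.09 CPM in NW depleted libraries. The related channels cacna1b.S, at -1.20 ± 0.87 and -1.08 ± 0.87, and cacna1a.S, at 0.34 ± 1.12 and -2.57 ± 1.32, did not pass either. Nuclear receptor cofactors had 17 and 16 tested entries, medians of -0.04 and -0.13 and 0 at an unadjusted p under 0.05. Here nr2f2 had -0.31 ± 1.18 and -1.51 ± 1.10, nr2f1.L -1.17 ± 1.08 and -0.48 ± 0.88, and the retinoic acid receptor rarg.L 1.09 ± 0.92 and 0.55 ± 0.89.

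For Sin3 complex genes 24 and 21 entries were tested, with medians of 0.30 and -0.12 and 1 and 0 at an unadjusted p under 0.05. The complex subunit suds3.S had -2.44 ± 1.11 and 0.11 ± 0.87, the pocket protein rbl1.S -1.41 ± 1.28 and -1.30 ± 1.03, and the histone chaperone rbbp7.L -0.86 ± 1.27 and -0.61 ± 0.99. Focal adhesion genes had 25 and 27 tested entries, medians of -0.18 and 0.28, and 1 and 3 at an unadjusted p under 0.05. The counts of both lists stand beside 245 of 6585 and 253 of 6284 of all tested entries. The actin linker tln2.S had -1.13 ± 1.05 and -3.25 ± 0.92 (adjusted p = 0.522), and the integrin subunit itgb1.L 1.42 ± 0.93 and 1.44 ± 0.90.

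Close paralogs were read too, and were chosen after their values were seen. The entries caprin1.L and caprin1.S had log2 fold changes of 0.29 ± 0.61 and 0.11 ± 0.62 in depleted and -0.83 ± 0.71 and 0.16 ± 0.60 in undepleted libraries. The tensin entry tns3.L had 0.52 ± 0.83 and 0.28 ± 0.84 in depleted and undepleted libraries. The entry LOC108698882, which carries the symbol arid4a.L, had 1.33 ± 0.77 and -0.24 ± 0.79, and a second entry named arid4a.L had 0.77 ± 0.76 and 0.51 ± 0.74. None passed (edgeR adjusted p of 0.999 in depleted and 1.00 in undepleted libraries). The muscle calcium channel ryr1.L averaged 0 CPM in NWS and 16.2 ± 27.1 CPM in NW depleted libraries (SD, n = 3 each) and missed the filter.

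Some entries had a pattern much like that of a picked entry. Likeness was Pearson's r of log2 CPM over 12 libraries, centred within each preparation, among 1620 entries with at least 10 CPM on average in each. The libraries share group and depth, so r also holds the difference by which the entries were chosen. Depleted and undepleted libraries of like number may share RNA, so the 12 values may not be independent. The highest were Xelaev18022166m for caprin2.S (0.955), sept12.L for rev3l.L (0.857), LOC108699189 for ryr3.L (0.911), phip.S for nrip1.L (0.874), sema3d.L for tns1.L (0.913) and phip.S for arid4b.S (0.941). Next were Xelaev18022167m for caprin2.S (0.896) and for rev3l.L (0.813), leng8.L for ryr3.L (0.808), Xelaev18022166m for nrip1.L (0.872), foxd3.L for tns1.L (0.891) and fndc3a.L for arid4b.S (0.884). The chromatin reader entry phip.S was thus the closest to both nrip1.L and arid4b.S, which had no count in NWS depleted libraries. Its own log2 fold change was -1.88 in depleted and -1.68 in undepleted libraries.

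Most markers of neural crest also had negative fold changes. Of 22 tested crest entries 17 had a log2 fold change below 0 in depleted and 18 in undepleted libraries, with medians of -0.92 and -1.01, beside 51.5% and 52.1% of all tested entries below 0. None passed in edgeR, in DESeq2 or in limma-voom. An unadjusted p under 0.05 was found for 3 and 4 of them, beside 245 of 6585 and 253 of 6284 tested entries. With the block 1, sox10.S, passed in undepleted libraries, where 14 of all 6284 entries (0.223%) did. The summed crest level in depleted libraries was 1466, 467 and 440 CPM in NWS, against 1282, 742 and 1890 CPM in NW (exact two-sided permutation test, p = 0.3). In undepleted libraries it was 443, 113 and 124 CPM in NWS, against 443, 250 and 656 CPM in NW (exact p = 0.3). NWS library 1 was the highest NWS library in tns1.L and in the crest sum, and also in the epidermal sum, with 1085 CPM beside 252 and 224 CPM in depleted and 304 CPM beside 63.1 and 48.9 CPM in undepleted libraries. The part of crest markers in the levels of the picked entries was not tested.

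The other marker sums overlapped between the groups except that of multiciliated cells and ionocytes. The epidermal sum ranged over 224 to 1085 CPM in NWS and 126 to 917 CPM in NW depleted libraries, and 48.9 to 304 CPM in NWS and 37.2 to 249 CPM in NW undepleted libraries (exact p = 1.0 and 0.9). The neural plate sum ranged over 357 to 796 CPM in NWS and 275 to 514 CPM in NW depleted libraries, and 106 to 227 CPM in NWS and 58.7 to 160 CPM in NW undepleted libraries (exact p = 0.3 and 0.4). Mesoderm sums were 13.8 to 53.0 CPM in NWS and 13.7 to 119 CPM in NW depleted libraries, and 1.97 to 11.9 CPM in NWS and 1.84 to 14.6 CPM in NW undepleted libraries (exact p = 0.5 and 1.0). The sum for multiciliated cells and ionocytes was 3.68 to 7.17 CPM in NWS and 2.53 to 3.39 CPM in NW depleted libraries (exact p = 0.1), with 9 of its 13 entries at 0 in all of them. There 3 counts correspond to 2.76 to 5.89 CPM in NWS libraries and to 7.58 CPM in NW library 2. The lack of overlap thus rests on very few counts, and no difference in a cell type is read from it. The ranges of this sum overlapped in undepleted libraries. Sums for endoderm were at most 25.5 CPM and for blood and vessels at most 5.89 CPM in any library. Of single entries on these lists, foxa2.L, foxi1.L, tekt2.L and hba1.L were at 0 in all 12 libraries. Others had counts, such as gata6.L with up to 41 in a depleted and tekt2.S with up to 4 in an undepleted library.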

How the data were processed

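The 30 sequencing runs are lanes of 12 libraries, 3 for each of 4 groups, grouped by title. For NWS undepleted the source names count only 2 replicates and divide the lanes of library 2, so the titles were followed. The tools named in the submitters' processing notes, with no versions, are STAR, bcl2fastq, DESeq2 and featureCounts. The sources used here do not give build, strand setting or the handling of multiply matching reads. Lanes were already added up when the authors deposited raw counts and FPKM per entry. The deposited FPKM served for levels per length and for entry lengths, recovered from counts over FPKM for 31223 entries. LOC108704885 is arid4b.S, LOC108717934 rev3l.S and LOC108710139 fat4.L by gene ID in the RefSeq table of assembly Xenopus_laevis_v10.1. Reads shared by homeologs may be split, so levels of single copies are uncertain.

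Counts were tested per preparation with edgeR 4.0.16 in R 4.3.3 (TMM, filterByExpr with a minimum count of 10, quasi-likelihood test, Benjamini-Hochberg over all entries tested, threshold 0.05), with group as the only term. DESeq2 1.42.0 and limma-voom (limma 3.58.1) were alternatives. P-values measure the spread between these libraries only. Same-numbered NWS and NW libraries deviated together from their group means (r of 0.139, 0.248 and 0.155 depleted, 0.210, 0.244 and 0.131 undepleted), so the numbers were taken to pair them, which the labels do not state. Single values were compared by exact permutation tests. Intervals and floors of 3 counts cover counting error only. Figures used Python 3.11.15 with matplotlib 3.10.9.

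The members, the gene lists and the tests were chosen with earlier results of these data known. Named entries are all members, sf3b4, the 2 closest in pattern to each picked entry, the 3 with the largest mean change of each list and the 4 longest tested ones; some of these are not reported here. Counts of non-overlapping entries without single libraries or both libraries numbered 2, and bounds without NW library 1, were added after seeing the data.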

Additional observations from a re-analysis of the deposited data

How the results depend on the processing

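In the fits followed here, the picked entries had a log2 fold change of NWS over NW below 0, the direction they were picked for. Entries that missed the filter of the main fit were not followed, ryr3.L in undepleted libraries and nrip1.L and arid4b.S in depleted ones. In undepleted libraries a few alternatives dropped nrip1.L or arid4b.S. In depleted libraries caprin2.S ranged from -2.75 to -2.27, rev3l.L from -4.81 to -2.97, ryr3.L from -6.21 to -3.90 and tns1.L from -6.82 to -1.90. The lowest values of ryr3.L and tns1.L, both without NWS library 1, each have only 1 NWS count behind them. In undepleted libraries caprin2.S ranged from -3.17 to -1.95, rev3l.L from -1.15 to -0.57, tns1.L from -4.34 to -2.20 and arid4b.S from -9.63 to -3.72, where the lowest value has NWS at 0 and is no bound, and with both copies summed arid4b had -2.74. Fits of nrip1.L, at 0 in NWS, are not given. Of the homeologs nrip1.S and arid4b.L were followed, and neither passed in a fit that kept it. The number of entries called varied more. In depleted libraries it was 0, and 9 with DESeq2, 2 with limma-voom, 20 without a filter, 13 with the replicate block, 1 without both libraries numbered 2, and 0 to 24 with single libraries left out, most without NWS library 1. In undepleted libraries it was 1, and 19 with DESeq2, 29 without a filter, 14 with the replicate block and 1 to 26 with single libraries left out, most without NW library 1 (26) and NWS library 1 (25). Between preparations it was 5, and 2 with DESeq2, without all libraries numbered 2 or without dominant entries, 11 without a filter and 10 with the replicate block, where rev3l.S turned to -0.065 and ryr3.L to 0.20. The difference in the share of long entries turned to 0.255 points in depleted libraries with entries of 5000 bases or more, to -1.71 points in undepleted libraries with dominant entries kept (-2.08 points in depleted ones, against -0.178), and with single libraries left out ranged from -1.81 to 1.07 points (depleted) and from -0.990 to 0.715 points (undepleted). The causes were not tested. Without both libraries numbered 2, an alternative added after seeing the data, 6 picked entries did not overlap in depleted and 5 in undepleted libraries. Of all tested entries 17.0% and 14.7% had every NWS library below every NW library, and entries higher in NWS were not counted. Single libraries left out gave 5 to 6 and 4 to 5, beside 7.15% to 10.8% and 6.35% to 10.3% of all tested entries, counted in the same way. The choice of the entries used this pattern, so nothing is read from these counts. In depleted libraries they include entries that missed the filter, nrip1.L and arid4b.S among the 6. In undepleted libraries the 5 without NWS library 3 and the 5 without NW library 1 include ryr3.L, which missed the filter there. Depth limits the low values, since 3 counts correspond to as much as 7.58 CPM in depleted and 2.76 CPM in undepleted libraries, more than several of the levels above.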
